A study of Homo sapiens with 6 samples.

Results

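Respiratory complex I (NADH:ubiquinone oxidoreductase) is the largest enzyme of the mitochondrial electron transport chain. It takes electrons from NADH in its matrix arm, passes them along iron-sulfur clusters to ubiquinone, and pumps protons through its membrane arm. Most of its subunits are encoded in the nucleus and imported, the others come from mitochondrial DNA, and a set of assembly factors that are not in the finished enzyme builds the modules and joins them. Proliferating HEK293 cells, a human embryonic kidney line, need both genomes to make it. Here the messenger levels of its nuclear genes were followed in HEK293 derivatives in which the DNA repair enzyme APE1 could be induced. APE1 cuts DNA at abasic sites in base excision repair and also acts on the redox state of transcription factors.

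The genes were chosen by name: array rows whose only gene symbol is an NDUFA, NDUFB, NDUFC, NDUFS or NDUFV name, NDUFAB1 or an NDUFAF name. This gave 34 genes with 1 row each, of 12448 genes that have a row of their own. Of the 34, 27 are subunits and 7 are assembly factors. All 27 subunits and 4 of the 7 assembly factors (NDUFAF1, NDUFAF3, NDUFAF4 and NDUFAF7) passed a filter on low rows, set at the 25th percentile of row means, which is 5.03 log2. NDUFAF2, NDUFAF5 and NDUFAF6 lay under it. The subunits were 4 core and 9 accessory proteins of the matrix arm, 13 accessory proteins of the membrane arm, and the acyl carrier protein NDUFAB1, which sits in both. NDUFA3, NDUFA13, NDUFB6, NDUFB8, NDUFB11, NDUFS1 and NDUFS5 share their rows with other genes, and NDUFA4, NDUFAF8, NDUFB4 and NDUFV2 were not analysed here.

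Total RNA of 6 groups was measured on Affymetrix whole-transcript arrays. The wtAPE1 line (HEK293/pcDNA-FRT wtAPE1) expresses wild-type APE1 under tet-on control, the ubAPE1 line (HEK293/pcDNA-FRT ubAPE1) expresses a fusion of ubiquitin and APE1 in the same way, and the vector line (HEK293/pcDNA-FRT empty vector) carries no insert. Each line was grown for 16 h with doxycycline at 2 µg/ml (dox+) or without it (dox-), and all groups had puromycin at 1 µg/ml. Every group is 1 deposited column, the mean of 3 biological replicates as averaged by the authors, so no spread between replicates can be given and a response of 1 line carries no test. The endogenous APEX1 gene is present in all 3 lines.

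Levels are log2 values aligned between columns: from each column its median deviation from the row means over the 11619 kept rows was subtracted. These shifts ran from -0.11 log2 in the wtAPE1 dox- column to 0.10 log2 in the vector dox- column. APEX1, which encodes APE1, checks the doxycycline labels of the APE1 lines but does not tell wtAPE1 from ubAPE1 columns. Its level was 10.70 log2 in dox+ and 9.61 log2 in dox- cells of the wtAPE1 line, 10.65 log2 in dox+ and 9.77 log2 in dox- cells of the ubAPE1 line, and 9.62 log2 in dox+ and 9.44 log2 in dox- cells of the vector line. Both APE1 lines thus had more APEX1 signal with the drug, by 1.09 and 0.88 log2, against 0.18 log2 in the vector line. The ubAPE1 columns do not sit together: over the kept rows dox+ and dox- correlated at 0.971 within the ubAPE1 line, against 0.987 within the wtAPE1 line and 0.988 within the vector line, and the ubAPE1 dox+ column correlated at 0.990 with wtAPE1 dox+ and at 0.988 with wtAPE1 dox-. Whether the columns of the APE1 lines carry the labels of the cells hybridised was not tested, and the responses of both lines rest on those labels. Of 6 measured kidney epithelial markers 5 were kept. Keratins KRT8 and KRT18 averaged 10.4 and 8.33 log2 and the kidney regulator PAX2 6.12 log2, PAX8 and EPCAM were also kept, and CDH1 lay under the filter. Of 3 measured neuronal lineage markers, all kept, the neurofilament genes NEFL and INA averaged 8.88 and 8.10 log2 and the third 5.95 log2. Of the fibroblast markers COL1A1, COL1A2 and PDGFRB were measured and all kept, at 6.28, 5.52 and 5.18 log2, and of 4 measured blood cell markers CD68 was kept at 6.49 log2, with CD34, CD3E and HBB under the filter. EPCAM, an epithelial adhesion molecule, differed from the vector line by -3.02 log2 in the wtAPE1 line and by -2.98 log2 in the ubAPE1 line. The part of such line differences in the results below was not tested.

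The response of a gene is its dox+ level minus its dox- level in 1 line. Complex I subunits had mostly lower levels with doxycycline in the wtAPE1 line, with a median response of -0.24 log2 and 23 of 27 subunits below 0, where 52.6% of all kept rows were below 0. In the ubAPE1 line the subunit median was -0.04 log2 with 14 of 27 below 0, beside 50.7% of all rows. In the vector line it was -0.12 log2 with 17 of 27 below 0, beside 47.8% of all rows. The median of all kept rows was -0.01, -0.01 and 0.01 log2 in the wtAPE1, ubAPE1 and vector lines. Without the alignment the subunit medians were -0.15 log2 in the wtAPE1 line, -0.16 log2 in the ubAPE1 line and -0.18 log2 in the vector line. The medians of all kept rows were then 0.07, -0.13 and -0.05 log2. After quantile normalization the subunit medians were -0.30, 0.04 and -0.15 log2, so the sign of the small ubAPE1 median depends on the scaling.

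**Figure D1:**
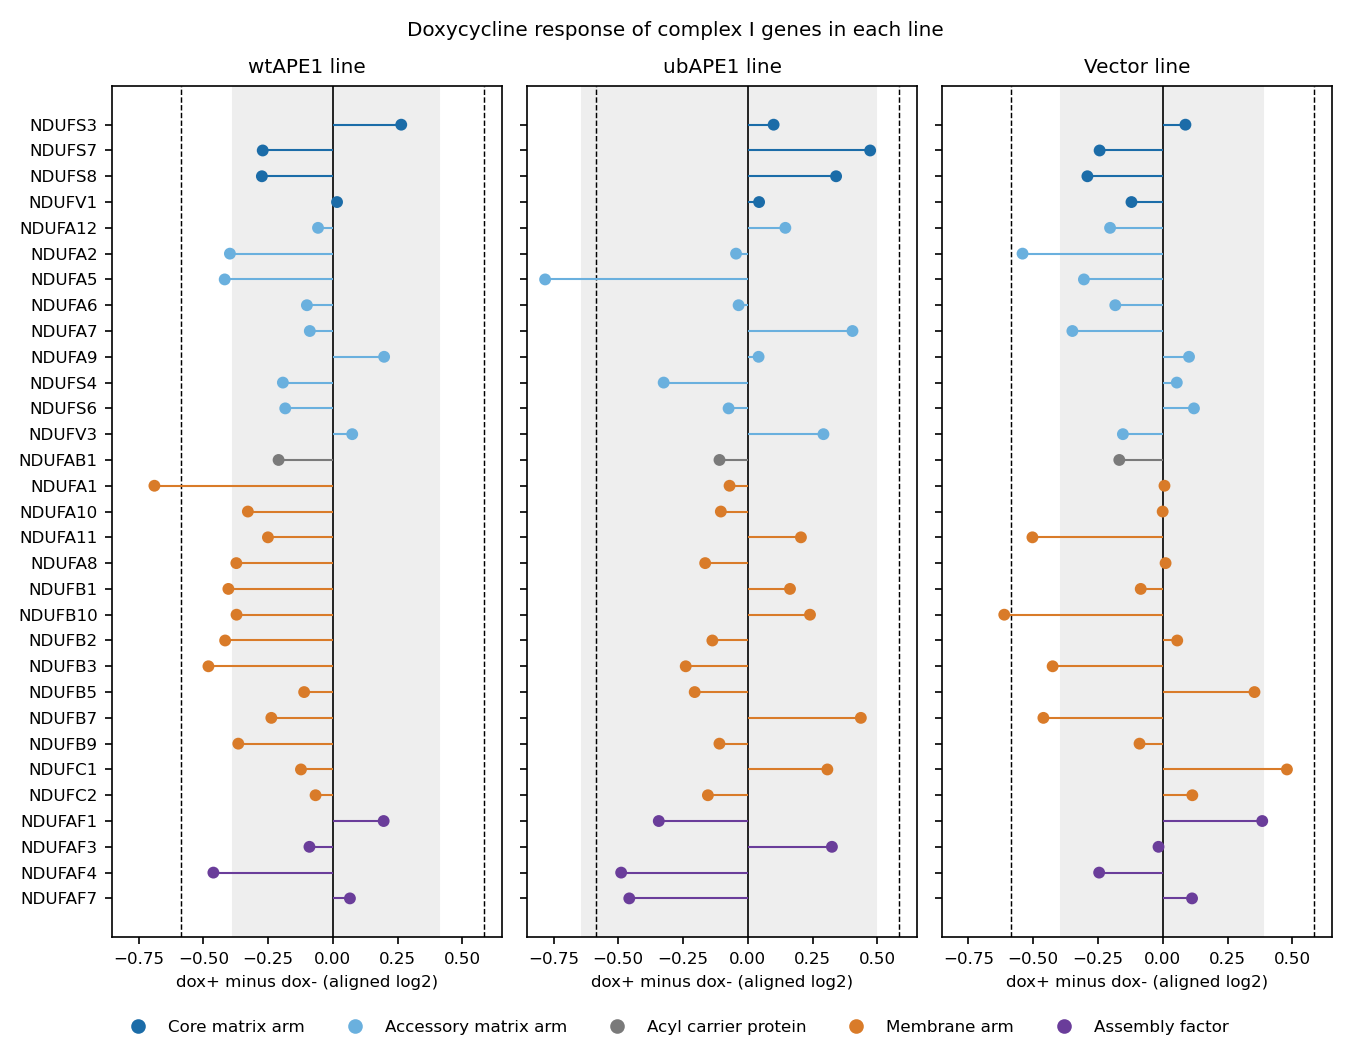
Doxycycline response (dox+ minus dox-, aligned log2, x axis) of the 31 kept complex I genes (y axis) in the wtAPE1, ubAPE1 and vector lines, 1 point per gene from 1 pair of averaged columns and coloured by role. Dashed lines mark 1.5-fold, and the grey band holds the central 95% of all kept rows. All membrane-arm subunits lie left of 0 in the wtAPE1 line, and 1 gene per line passes the lower 1.5-fold line.

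A change of at least 1.5-fold was rare among these genes. In the wtAPE1 line only NDUFA1 was lower by that much, where 0.491% of all kept rows were, and in the ubAPE1 line only NDUFA5, beside 4.04% of rows. In the vector line it was NDUFB10, beside 0.551% of rows. No complex I gene was 1.5-fold higher in any line, where 0.448%, 1.09% and 0.37% of rows were in the wtAPE1, ubAPE1 and vector lines. With a smaller limit of 0.32 log2, 11 of the 31 genes were lower and 0 higher in the wtAPE1 line, where 4.48% of rows were lower and 5.52% higher. In the ubAPE1 line 5 were lower and 5 higher, beside 17.2% and 11.4% of rows, and in the vector line 6 were lower and 3 higher, beside 4.45% and 4.73%. Without the alignment the wtAPE1 count at 0.32 log2 was 5 lower and 1 higher, beside 2.07% and 11.3% of rows.

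The membrane arm holds the proton-pumping part, and its nuclear-encoded accessory subunits surround the core proteins that mitochondrial DNA encodes. All 13 measured membrane-arm subunits had lower levels in dox+ than in dox- cells of the wtAPE1 line, beside 52.6% of all kept rows. Their median response was -0.37 log2, with a range of -0.69 to -0.07 log2. Without the alignment 12 of 13 were lower, beside 3874 of 11619 rows. In the ubAPE1 line 8 of 13 were below 0 with a median of -0.10 log2, beside 50.7% of rows. In the vector line 7 of 13 were, with responses from -0.61 to 0.48 log2, beside 47.8% of rows. The 5 promoters printed here belong to the genes that passed 1.5-fold in a line and to NDUFB7 and NDUFS7, the subunits with the highest responses in the ubAPE1 line. Each runs from 250 bases before to 50 bases after the start in RefSeq (GRCh38.p14), 5′ to 3′ on the gene's strand, and capitals mark the letters of an NRF1, ETS or YY1 motif as spelled out further on.

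NDUFA1, a small X-linked subunit of the membrane arm whose loss causes complex I deficiency, had the largest response in the wtAPE1 line. Its promoter at chrX:119871582-119871881 (plus strand) holds ETS letters on the reverse strand at positions -47 to -41 from the start.
NDUFA1: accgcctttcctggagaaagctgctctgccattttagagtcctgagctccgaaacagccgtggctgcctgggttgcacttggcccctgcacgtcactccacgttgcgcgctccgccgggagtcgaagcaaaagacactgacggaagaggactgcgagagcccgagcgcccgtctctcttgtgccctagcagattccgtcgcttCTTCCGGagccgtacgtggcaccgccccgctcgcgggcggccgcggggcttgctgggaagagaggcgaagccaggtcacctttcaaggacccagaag
The NDUFA1 level was 8.63 log2 in dox+ and 9.32 log2 in dox- cells of the wtAPE1 line. It was 8.73 log2 in dox+ and 8.80 log2 in dox- cells of the ubAPE1 line, and 8.76 log2 in dox+ and 8.75 log2 in dox- cells of the vector line. The wtAPE1 dox- column is thus the one that stands above the other 5, and the wtAPE1 dox+ column is the lowest. The response was -0.69 log2 in the wtAPE1 line (1.61-fold lower), against -0.07 log2 in the ubAPE1 line and 0.01 log2 in the vector line.

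NDUFB10 and NDUFB7 lie on the intermembrane-space side of the membrane arm and belong to the family of proteins with paired cysteine motifs. Both had lower levels with doxycycline in the wtAPE1 and vector lines and higher levels in the ubAPE1 line. Their promoters are at chr16:1959288-1959587 (plus strand) and chr19:14572017-14572316 (minus strand). The NDUFB10 stretch holds none of the 3 motifs, and the NDUFB7 stretch holds ETS letters at positions -24 to -18.
NDUFB10: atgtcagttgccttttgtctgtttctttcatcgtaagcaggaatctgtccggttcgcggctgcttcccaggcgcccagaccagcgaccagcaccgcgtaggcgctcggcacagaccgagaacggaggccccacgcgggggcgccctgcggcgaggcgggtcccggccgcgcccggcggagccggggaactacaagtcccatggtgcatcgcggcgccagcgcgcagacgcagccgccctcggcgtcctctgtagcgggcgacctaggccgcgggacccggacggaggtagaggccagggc
NDUFB7: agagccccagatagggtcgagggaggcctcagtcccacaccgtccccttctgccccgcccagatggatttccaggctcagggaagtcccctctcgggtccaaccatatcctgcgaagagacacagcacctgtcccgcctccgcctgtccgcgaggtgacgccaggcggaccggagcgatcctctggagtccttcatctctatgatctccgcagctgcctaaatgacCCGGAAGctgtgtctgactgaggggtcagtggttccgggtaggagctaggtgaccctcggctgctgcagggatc
NDUFB10 was at 8.22 log2 in dox+ and 8.59 log2 in dox- cells of the wtAPE1 line, 8.55 log2 in dox+ and 8.31 log2 in dox- cells of the ubAPE1 line, and 8.22 log2 in dox+ and 8.83 log2 in dox- cells of the vector line. The 3 higher columns were the uninduced vector and wtAPE1 cells and the induced ubAPE1 cells. Its responses were -0.37 log2 in the wtAPE1 line, 0.24 log2 in the ubAPE1 line and -0.61 log2 in the vector line (1.53-fold lower). NDUFB7 was at 7.97 log2 in dox+ and 8.20 log2 in dox- cells of the wtAPE1 line, 8.31 log2 in dox+ and 7.88 log2 in dox- cells of the ubAPE1 line, and 7.86 log2 in dox+ and 8.32 log2 in dox- cells of the vector line. The same 3 columns were the higher ones. Its responses were -0.24, 0.44 and -0.46 log2 in the wtAPE1, ubAPE1 and vector lines.

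**Figure D2:**
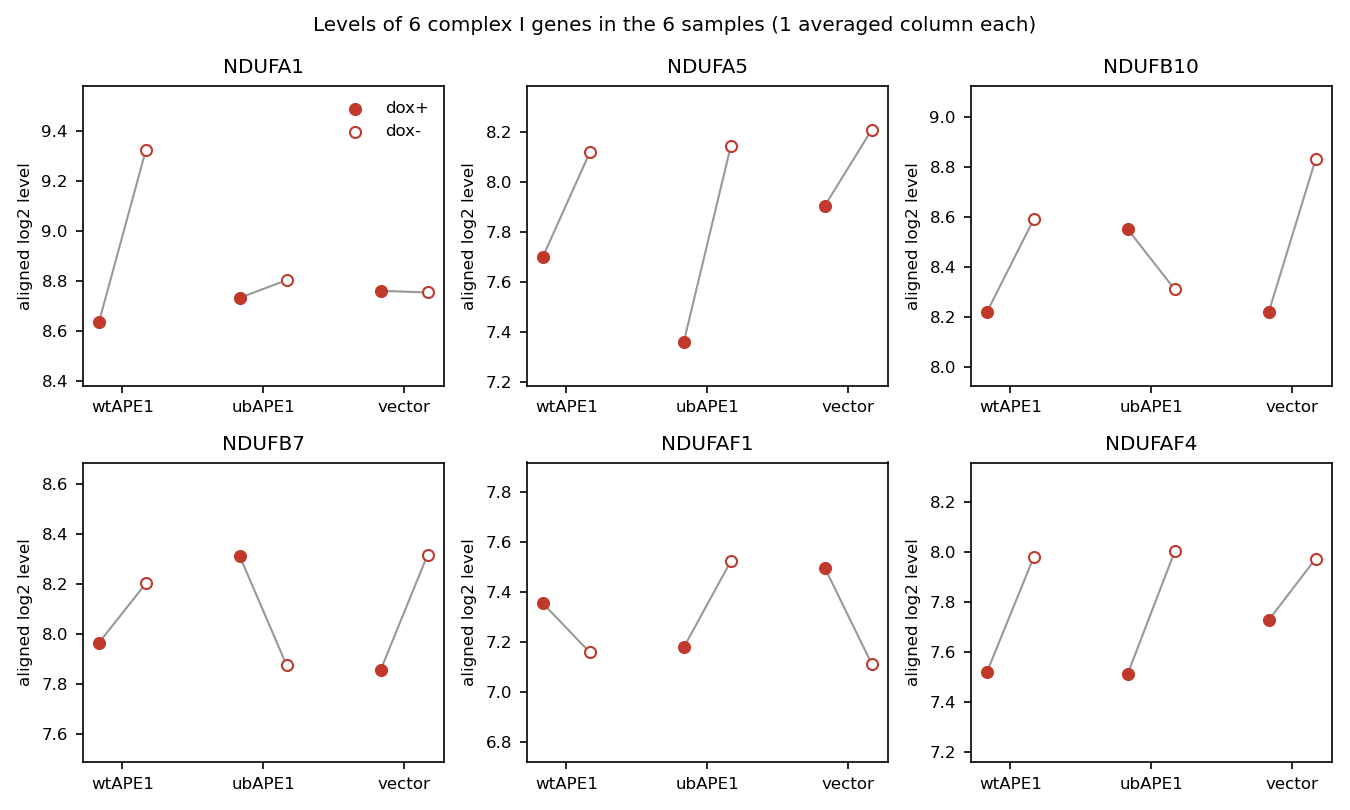
Aligned log2 level (y axis, each panel spanning 1.2 log2 around its own middle) of 6 complex I genes in dox+ (filled) and dox- (open) cells of the wtAPE1, ubAPE1 and vector lines, with 1 averaged column per point and no error bars because the replicates were averaged before deposit. NDUFA1 stands apart in wtAPE1 dox- at 9.32 log2, NDUFB10 and NDUFB7 slope the other way in the ubAPE1 line, and NDUFA5 and NDUFAF4 slope the same way in all lines.

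Other membrane-arm subunits filled in this picture. NDUFA11, a transmembrane subunit, stood at 8.67 log2 in dox+ and 8.93 log2 in dox- cells of the wtAPE1 line, 8.76 and 8.55 log2 in dox+ and dox- cells of the ubAPE1 line, and 8.48 and 8.98 log2 in dox+ and dox- cells of the vector line. It shared the pattern of NDUFB7, with responses of -0.25, 0.21 and -0.50 log2 in the wtAPE1, ubAPE1 and vector lines. NDUFB1, a short single-span subunit, had responses of -0.40, 0.16 and -0.09 log2 in the same lines. NDUFA8, another protein with paired cysteines, had responses of -0.37, -0.16 and 0.01 log2. NDUFA10, a relative of nucleoside kinases, responded by -0.33 log2 in the wtAPE1 line and by -0.10 log2 in the ubAPE1 line, with 7.83 log2 in both vector columns. NDUFB2 and the LYR-motif protein NDUFB9 had responses of -0.42 and -0.37 log2 in the wtAPE1 line, of -0.14 and -0.11 log2 in the ubAPE1 line and of 0.06 and -0.09 log2 in the vector line. All of these were below 0 in the wtAPE1 line, with single columns behind each value.

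NDUFB3, a membrane-arm subunit in which recessive mutations cause complex I deficiency, had the lowest mean of the 31 kept genes, 5.04 log2. It stood at 4.66 log2 in dox+ and 5.14 log2 in dox- cells of the wtAPE1 line, at 4.88 log2 in dox+ and 5.12 log2 in dox- cells of the ubAPE1 line, and at 5.002 log2 in dox+ and 5.43 log2 in dox- cells of the vector line. The dox+ column was the lower one in every line, with responses of -0.48, -0.24 and -0.43 log2. NDUFC1, NDUFC2 and NDUFB5, which sit near the join of the arms or along the membrane arm, were the membrane-arm subunits with the highest vector responses. NDUFC1 was at 9.98 log2 in dox+ and 10.11 log2 in dox- cells of the wtAPE1 line, at 10.15 log2 in dox+ and 9.84 log2 in dox- cells of the ubAPE1 line, and at 9.96 log2 in dox+ and 9.48 log2 in dox- cells of the vector line. The vector dox- column was the low one. NDUFB5 responded by -0.11, -0.21 and 0.35 log2 and NDUFC2 by -0.07, -0.15 and 0.11 log2 in the wtAPE1, ubAPE1 and vector lines.

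The matrix arm carries the NADH site, the iron-sulfur clusters and the ubiquinone site. Its 4 measured core subunits are NDUFV1, which binds NADH and flavin, NDUFS3, which links the modules of the arm, and NDUFS7 and NDUFS8, which hold the clusters nearest to ubiquinone. All 4 had responses above 0 in the ubAPE1 line, with a median of 0.22 log2, beside 49.3% of all kept rows. All 4 genes span at most 12.6 kb, and 73.6% of the kept rows of at most that length were above 0 there. Without the alignment 2 of 4 (NDUFS3 and NDUFV1) were below 0 in the ubAPE1 line, and the median over the 4 was 0.10 log2. The same genes were below 0 with the trend of gene length removed, where the median over the 4 was 0.07 log2. In the wtAPE1 line 2 of 4 were below 0 with a median of -0.13 log2, beside 52.6% of all kept rows. In the vector line 3 of 4 were, with a median of -0.18 log2, beside 47.8% of rows. The NDUFS7 promoter lies at chr19:1383657-1383956 (plus strand) and holds NRF1 letters on the reverse strand at positions -72 to -66 and YY1 letters 20 to 26 bases after the start.
NDUFS7: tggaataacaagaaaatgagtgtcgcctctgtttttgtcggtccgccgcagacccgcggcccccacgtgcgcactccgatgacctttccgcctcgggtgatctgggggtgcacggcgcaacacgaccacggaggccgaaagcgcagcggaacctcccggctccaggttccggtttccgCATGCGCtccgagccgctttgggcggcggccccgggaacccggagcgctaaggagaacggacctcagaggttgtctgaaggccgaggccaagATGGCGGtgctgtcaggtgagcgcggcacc
NDUFS7 was at 7.59 log2 in dox+ and 7.86 log2 in dox- cells of the wtAPE1 line, at 7.95 log2 in dox+ and 7.48 log2 in dox- cells of the ubAPE1 line, and at 7.49 log2 in dox+ and 7.73 log2 in dox- cells of the vector line. Its ubAPE1 dox+ column was the highest of the 6, and its responses were -0.27, 0.47 and -0.24 log2 in the wtAPE1, ubAPE1 and vector lines. NDUFS8 was at 7.67 log2 in dox+ and 7.95 log2 in dox- cells of the wtAPE1 line, at 8.01 log2 in dox+ and 7.67 log2 in dox- cells of the ubAPE1 line, and at 7.82 log2 in dox+ and 8.11 log2 in dox- cells of the vector line. It followed the same order within each line, with responses of -0.27, 0.34 and -0.29 log2. NDUFS3 and NDUFV1 did not follow it: NDUFS3 responded by 0.26, 0.10 and 0.09 log2 in the wtAPE1, ubAPE1 and vector lines and had the highest wtAPE1 response of the 31 genes, and NDUFV1 responded by 0.02, 0.04 and -0.12 log2 and had the smallest range over the 6 columns, 0.13 log2.

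Among the 9 accessory subunits of the matrix arm, NDUFA5 had the largest response. It is a small subunit of the arm that carries electrons to ubiquinone, and its row had the widest range of the 31 genes over the 6 columns, 0.85 log2. Of 3 starts listed for it, the promoter with the highest GC content is shown, at chr7:123557769-123558068 (minus strand), with NRF1 letters and, 23 to 29 bases after the start, YY1 letters.
NDUFA5: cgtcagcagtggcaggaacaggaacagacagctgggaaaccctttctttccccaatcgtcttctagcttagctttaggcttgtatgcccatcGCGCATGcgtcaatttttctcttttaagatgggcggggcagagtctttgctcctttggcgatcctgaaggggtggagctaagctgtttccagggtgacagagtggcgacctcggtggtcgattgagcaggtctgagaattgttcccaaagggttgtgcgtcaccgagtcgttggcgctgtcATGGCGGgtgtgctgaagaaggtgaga
NDUFA5 stood at 7.70 log2 in dox+ and 8.12 log2 in dox- cells of the wtAPE1 line. It stood at 7.36 log2 in dox+ and 8.14 log2 in dox- cells of the ubAPE1 line, and at 7.91 log2 in dox+ and 8.21 log2 in dox- cells of the vector line. The 3 dox- columns lay within 0.1 log2 of each other and every dox+ column lay below them, lowest in the ubAPE1 line. The responses were -0.42 log2 in the wtAPE1 line, -0.78 log2 in the ubAPE1 line (1.72-fold lower) and -0.30 log2 in the vector line.

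NDUFA2, a thioredoxin-fold subunit, was at 9.01 log2 in dox+ and 9.41 log2 in dox- cells of the wtAPE1 line, at 9.27 log2 in dox+ and 9.31 log2 in dox- cells of the ubAPE1 line, and at 8.94 log2 in dox+ and 9.48 log2 in dox- cells of the vector line. The ubAPE1 columns differed least, with responses of -0.40, -0.05 and -0.54 log2 in the wtAPE1, ubAPE1 and vector lines. NDUFA7 was at 8.84 log2 in dox+ and 8.93 log2 in dox- cells of the wtAPE1 line, at 8.87 log2 in dox+ and 8.47 log2 in dox- cells of the ubAPE1 line, and at 8.57 log2 in dox+ and 8.92 log2 in dox- cells of the vector line. It was low in ubAPE1 dox- and vector dox+ cells, the same columns that were low for NDUFB7. NDUFS4, whose loss causes Leigh syndrome, responded by -0.19, -0.32 and 0.05 log2 in the wtAPE1, ubAPE1 and vector lines. The zinc-binding subunit NDUFS6 responded by -0.18, -0.07 and 0.12 log2 and the LYR-motif protein NDUFA6 by -0.10, -0.04 and -0.18 log2. NDUFA12 responded by -0.06, 0.14 and -0.20 log2, NDUFV3 by 0.07, 0.29 and -0.15 log2, and NDUFA9, a relative of short-chain dehydrogenases, by 0.20, 0.04 and 0.10 log2. NDUFAB1, the mitochondrial acyl carrier protein that binds LYR-motif subunits in both arms, was lower with doxycycline in all lines, with responses of -0.21, -0.11 and -0.17 log2.

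Assembly factors with NDUFAF names did not share a response. Over the 4 kept genes the median was -0.01 log2 in the wtAPE1 line with 2 below 0, beside 52.6% of all kept rows. It was -0.40 log2 in the ubAPE1 line with 3 below 0, beside 50.7% of rows. In the vector line it was 0.05 log2 with 2 below 0, beside 47.8% of rows. The wtAPE1 median was 0.07 log2 and the vector median -0.01 log2 without the alignment, and the ubAPE1 median stayed below 0 on each scaling tried, between -0.52 and -0.33 log2. NDUFAF1 is part of the intermediate assembly complex that builds the membrane arm. It stood at 7.36 log2 in dox+ and 7.16 log2 in dox- cells of the wtAPE1 line, at 7.18 log2 in dox+ and 7.52 log2 in dox- cells of the ubAPE1 line, and at 7.50 log2 in dox+ and 7.11 log2 in dox- cells of the vector line. Its response had the opposite sign to that of NDUFB7 in each line, with responses of 0.20, -0.34 and 0.38 log2. NDUFAF7 is a mitochondrial arginine methyltransferase. It was at 6.64 log2 in dox+ and 6.57 log2 in dox- cells of the wtAPE1 line, at 6.28 log2 in dox+ and 6.73 log2 in dox- cells of the ubAPE1 line, and at 6.79 log2 in dox+ and 6.68 log2 in dox- cells of the vector line, so the ubAPE1 dox+ column was the low one.

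NDUFAF3 and NDUFAF4 work as a pair early in assembly of the ubiquinone module. Their messages differed in direction in the ubAPE1 line. NDUFAF4 was at 7.52 log2 in dox+ and 7.98 log2 in dox- cells of the wtAPE1 line, at 7.51 log2 in dox+ and 8.004 log2 in dox- cells of the ubAPE1 line, and at 7.73 log2 in dox+ and 7.97 log2 in dox- cells of the vector line. Its dox+ columns were the lower ones in all lines, with responses of -0.46, -0.49 and -0.25 log2. NDUFAF3 responded by -0.09, 0.32 and -0.02 log2 in the wtAPE1, ubAPE1 and vector lines. Under the filter, NDUFAF5, which hydroxylates an arginine of NDUFS7, stood at 4.97 log2 in dox+ and 5.19 log2 in dox- cells of the wtAPE1 line, at 5.05 and 4.96 log2 in dox+ and dox- cells of the ubAPE1 line, and at 4.50 and 4.45 log2 in dox+ and dox- cells of the vector line, so the vector columns were the lowest. NDUFAF6 lay between 4.67 log2 in ubAPE1 dox+ and 5.05 log2 in ubAPE1 dox- cells. NDUFAF2, a relative of NDUFA12 that helps to attach the NADH module, lay between 1.89 and 2.22 log2 in 5 columns and at 3.23 log2 in the vector dox+ column. The 26 named neighbours of that NDUFAF2 row in the array's numbering are all on chromosome 2, whereas the gene is on chromosome 5, so whether the row measures NDUFAF2 was not tested.

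Across the 3 lines the signs of the responses fell into most of the possible patterns. Lower in the wtAPE1 and vector lines but higher in the ubAPE1 line were 8 subunits (NDUFA7, NDUFA11, NDUFA12, NDUFB1, NDUFB7, NDUFB10, NDUFS7 and NDUFS8) and NDUFAF3, where 16.9% of all kept rows had that pattern. Lower in all lines were 7 subunits (NDUFA2, NDUFA5, NDUFA6, NDUFA10, NDUFAB1, NDUFB3 and NDUFB9) and NDUFAF4, beside 8.12% of rows. Lower in both APE1 lines and higher in the vector line were 7 subunits (NDUFA1, NDUFA8, NDUFB2, NDUFB5, NDUFC2, NDUFS4 and NDUFS6), beside 12.9% of rows. NDUFAF1 and NDUFAF7 were higher in the wtAPE1 and vector lines and lower in the ubAPE1 line, a pattern held by 0 subunits and 17.1% of rows. NDUFA9 and NDUFS3 were higher in all lines, beside 7.4% of rows. NDUFV1 and NDUFV3 were lower in the vector line only, beside 10.3% of rows, and NDUFC1 in the wtAPE1 line only, beside 14.7%. Counted by column, 9 of the 27 subunits had their highest level in wtAPE1 dox- and 9 in vector dox- cells, while 7 had their lowest level in wtAPE1 dox+ and 7 in vector dox+ cells. Of all kept rows, 20.2% were highest in wtAPE1 dox- and 17.4% in vector dox- cells, and 8.18% were lowest in wtAPE1 dox+ and 18.4% in vector dox+ cells. The small responses in these counts are open to the alignment. The vector response was 0.01 log2 for NDUFA1 and for NDUFA8, and NDUFA10 was at 7.83 log2 in both vector columns. Without the alignment NDUFA1, NDUFA8 and NDUFS4 were lower with doxycycline in the vector line, and NDUFC2 was higher in the wtAPE1 line. These genes then no longer had the patterns given.

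Differences between the responses of 2 lines use 4 single columns and carry no test. The differences of wtAPE1 and of ubAPE1 from vector share the vector columns. Against the vector line, the wtAPE1 response was at least 1.5-fold lower for NDUFA1 (-0.70 log2) and NDUFC1 (-0.60 log2) and for 0 genes higher, where 1.77% of all kept rows were lower and 2.18% higher. Without the alignment, which moves this difference for all rows by 0.14 log2, 0 genes passed. The next lowest were NDUFB2 at -0.47 log2, NDUFB5 at -0.46 log2 and NDUFA8 at -0.38 log2, all in the membrane arm, whose median difference was -0.32 log2. The highest were NDUFA7 at 0.26 log2, NDUFA11 at 0.25 log2, NDUFB10 at 0.24 log2, NDUFV3 at 0.23 log2 and NDUFB7 at 0.22 log2.

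The ubAPE1 response was at least 1.5-fold above the vector response for 6 subunits, beside 3.68% of all kept rows. These were NDUFB7 at 0.90 log2, NDUFB10 at 0.85 log2, NDUFA7 at 0.75 log2, NDUFS7 at 0.72 log2, NDUFA11 at 0.71 log2 and NDUFS8 at 0.63 log2. It was at least 1.5-fold below for 1 gene, NDUFAF1 at -0.73 log2, beside 9.46% of rows, and the next lowest were NDUFAF7 at -0.57 log2, NDUFB5 at -0.56 log2, NDUFA5 at -0.48 log2 and NDUFS4 at -0.38 log2. The median difference was 0.06 log2 over the 27 subunits and -0.41 log2 over the 4 assembly factors, beside 0.01 log2 over all kept rows, and the subunit median was -0.01 log2 without the alignment. Without it NDUFS8 no longer passed and NDUFAF7 and NDUFB5 were added to the lower genes, beside 12.2% of rows, and with the trend of gene length removed NDUFA11 and NDUFS8 no longer passed and NDUFB5 was added to the lower ones. Against the wtAPE1 response, the ubAPE1 response was at least 1.5-fold higher for NDUFS7 at 0.74 log2, NDUFB7 at 0.67 log2, NDUFA1 at 0.62 log2, NDUFS8 at 0.61 log2 and NDUFB10 at 0.61 log2, beside 4.29% of rows, and lower for 0 genes, beside 7.99%. This last set depended on the scaling: without the alignment, which moves the median of all rows to -0.22 log2, 0 genes were 1.5-fold higher, beside 0.904% of rows, and NDUFAF1 and NDUFAF7 were lower, beside 20.3% of rows. The lowest values with the alignment were -0.54 log2 for NDUFAF1 and -0.52 log2 for NDUFAF7.

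The levels of complex I genes were then compared between lines with limma, with the dox+ and dox- columns of a line standing in for replicates. With 2 residual and 68.2 prior degrees of freedom the standard errors of the 31 kept genes lay between 0.171 and 0.180 log2, so the p-values follow the size of the mean difference and not how even it is across the drug states. None of the 31 kept genes passed an adjusted p of 0.05 in any line comparison. For wtAPE1 minus vector, 5.57% of all kept rows passed, and 0 of the 31 genes had an unadjusted p under 0.05, where 19.3% of rows did. For ubAPE1 minus vector 4.65% of rows passed, and again 0 genes had an unadjusted p under 0.05, where 13.6% of rows did. For ubAPE1 minus wtAPE1 0 rows and 0 genes passed, and 0 genes and 0.861% of rows had an unadjusted p under 0.05. The subunit medians were 0.00, -0.01 and -0.02 log2 for wtAPE1 minus vector, ubAPE1 minus vector and ubAPE1 minus wtAPE1, and those of the assembly factors -0.08, -0.08 and 0.00 log2. In each comparison the 95% interval of the mean difference over the drug states lay within 1.5-fold either way for 29 of the 31 genes. The share of all kept rows with such an interval was not counted. Such an interval does not show equal levels within 1 drug state.

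For wtAPE1 minus vector the differences ran from -0.31 log2 for NDUFB3 to 0.33 log2 for NDUFC1. NDUFC1 had the lowest adjusted p from limma, 0.293, with a standard error of 0.175 log2 and a 95% interval of -0.02 to 0.68 log2. The difference came from 1 state: NDUFC1 was 0.63 log2 higher in wtAPE1 dox- than in vector dox- cells and 0.03 log2 higher in wtAPE1 dox+ than in vector dox+ cells. NDUFA1 behaved alike, with a mean difference of 0.22 log2 (adjusted p = 0.492 by limma) that was 0.57 log2 in the dox- state and -0.13 log2 in the dox+ state. After NDUFC1 and NDUFA1 the highest were NDUFAB1 at 0.18 log2, NDUFA7 at 0.14 log2 and NDUFB2 at 0.11 log2, and after NDUFB3 the lowest were NDUFS8 at -0.15 log2, NDUFA5 at -0.15 log2, NDUFAF7 at -0.13 log2 and NDUFB10 at -0.12 log2.

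For ubAPE1 minus vector the lowest was NDUFA5 at -0.30 log2 (limma adjusted p = 0.472), which was -0.54 log2 in the dox+ state and -0.07 log2 in the dox- state. NDUFAF7 at -0.23 log2, NDUFB3 at -0.21 log2, NDUFB9 at -0.15 log2 and NDUFA10 at -0.14 log2 followed. The highest were NDUFC1 at 0.27 log2 and NDUFS3 at 0.24 log2, then NDUFS7 at 0.10 log2, NDUFAB1 at 0.09 log2 and NDUFA2 at 0.08 log2. NDUFS3 was the most even of these, at 0.25 log2 in the dox+ state and 0.24 log2 in the dox- state. For ubAPE1 minus wtAPE1 the range was -0.25 log2 for NDUFB9 to 0.27 log2 for NDUFS3, with NDUFA7, NDUFA1, NDUFA5 and NDUFA11 at -0.22, -0.21, -0.16 and -0.14 log2 and NDUFB3, NDUFAF1, NDUFA6 and NDUFA2 at 0.10, 0.09, 0.09 and 0.08 log2.

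**Figure D3:**
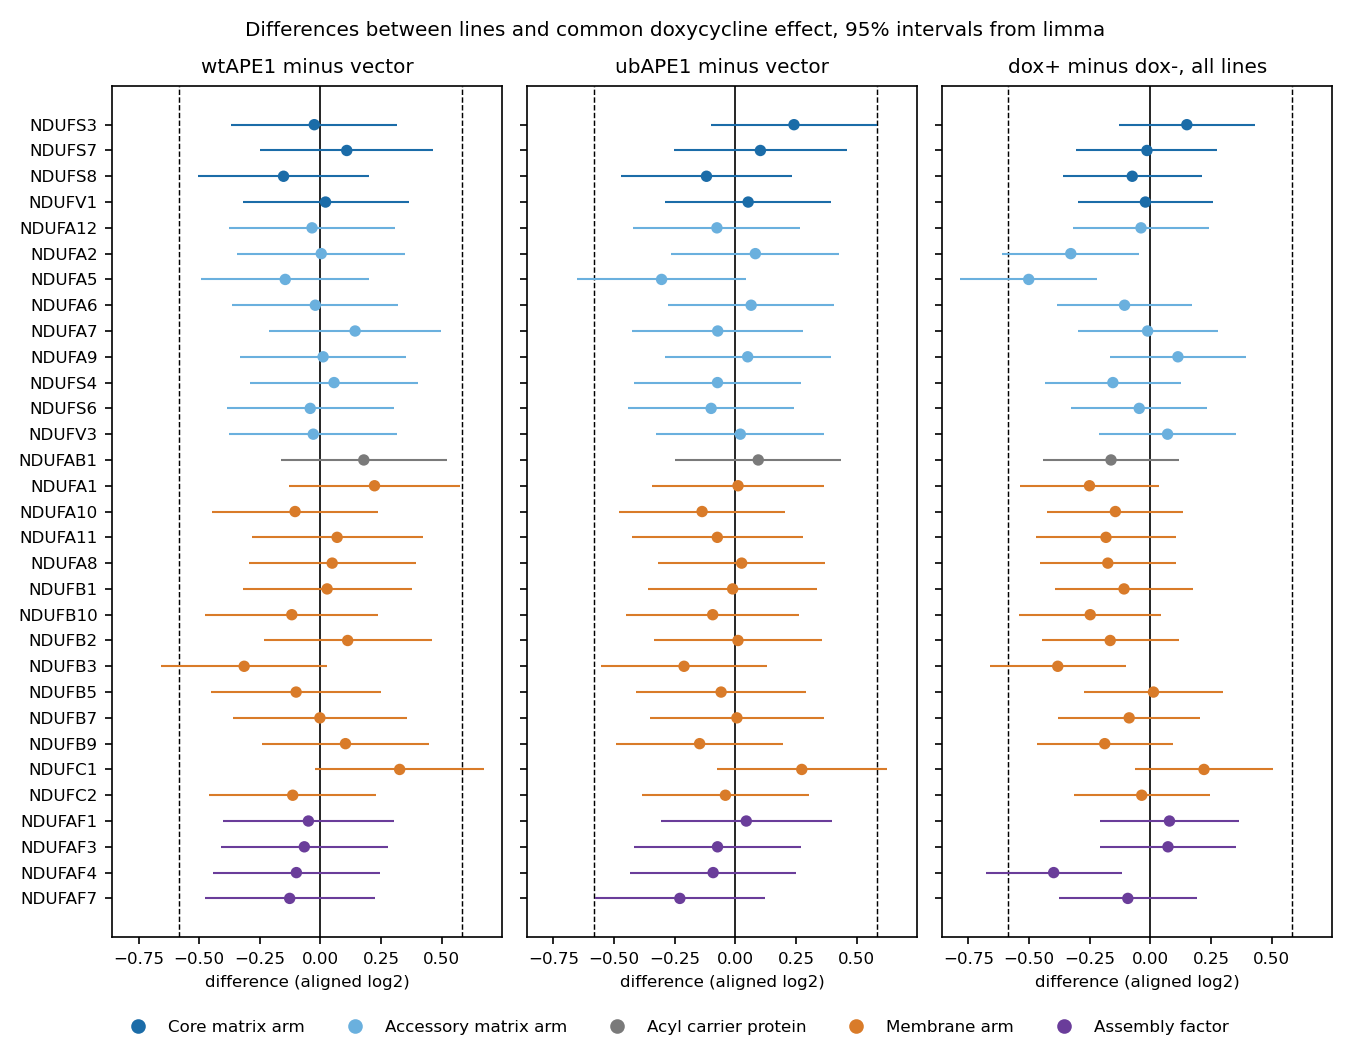
Differences in aligned log2 (x axis) for the 31 kept complex I genes (y axis): wtAPE1 minus vector, ubAPE1 minus vector, and dox+ minus dox- over all lines. Points are limma estimates from 6 averaged columns, bars are 95% intervals and dashed lines mark 1.5-fold. In both line comparisons every interval crosses 0, and in the drug comparison those of NDUFA5, NDUFAF4, NDUFB3 and NDUFA2 lie below 0 before adjustment.

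The common effect of doxycycline was the mean dox+ minus dox- difference over the 3 lines, with the lines standing in for replicates. No complex I gene passed an adjusted p of 0.05, where 0.0775% of all kept rows did. At an unadjusted p under 0.05 there were 4 of the 31 genes (12.9%), all lower, where 2.71% of rows were under it. The NDUFA5 effect was -0.50 log2 with a standard error of 0.142 log2 (adjusted p = 0.303 by limma), its 95% interval was -0.78 to -0.22 log2, and the gene was lower in all 3 lines. NDUFAF4 (-0.40 log2), NDUFB3 (-0.38 log2) and NDUFA2 (-0.33 log2) had adjusted p-values of 0.999 by limma and were also lower in all 3 lines. Without the ubAPE1 line the NDUFA5 value was -0.36 log2 (limma adjusted p = 0.479), and those of NDUFB3 and NDUFA2 were -0.45 and -0.47 log2 with adjusted p-values of 0.136 and 0.100. NDUFA1 followed at -0.25 log2, and the highest were NDUFC1 at 0.22 log2, NDUFS3 at 0.15 log2, NDUFA9 at 0.11 log2, NDUFAF1 at 0.08 log2 and NDUFAF3 at 0.07 log2. Over the subunits the median was -0.11 log2 with 22 of 27 below 0, beside 49.8% of all rows, and over the assembly factors it was -0.01 log2 with 2 of 4 below 0.

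Gene length moved with the responses over the whole array. Across the 9647 kept rows with 1 symbol and a length, the correlation of log10 gene length with the response was 0.21 in the wtAPE1 line, -0.39 in the ubAPE1 line and 0.16 in the vector line. Across the 31 complex I genes it was 0.16, -0.46 and 0.34. These are descriptions, since rows of 1 column share its preparation. Complex I genes of at most 12.6 kb (16 genes) had medians of -0.27 log2 in the wtAPE1 line, 0.07 log2 in the ubAPE1 line and -0.15 log2 in the vector line, and all rows of that length had -0.07, 0.17 and -0.02 log2. The 15 longer complex I genes had medians of -0.12, -0.11 and 0.01 log2 in the same lines, against 0.01, -0.08 and 0.02 log2 for all longer rows. With the median of genes of like length subtracted, 23 of 27 subunits were still below 0 in the wtAPE1 line (median -0.19 log2), as were 13 of 13 membrane-arm subunits (median -0.33 log2). In the ubAPE1 line the subtraction moved the subunit median to -0.11 log2, with 15 of 27 below 0, and turned the matrix-arm median to -0.05 log2 with 7 of 13 below 0, against 0.04 log2 with 5 of 13 below 0 before it.

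Some of the single values changed size with that subtraction and others did not. NDUFA1, which spans 4.83 kb, had a wtAPE1 response of -0.62 log2 after it, and NDUFA5, which spans 64.7 kb, an ubAPE1 response of -0.64 log2. NDUFAF4, which spans 8.58 kb, had an ubAPE1 response of -0.61 log2, larger than before. NDUFB10, which spans 2.44 kb, had 0.00 log2 in the ubAPE1 line in place of 0.24 log2, and -0.56 log2 in the vector line. For NDUFB7 (5.99 kb) and NDUFS7 (11.7 kb) the ubAPE1 responses were 0.28 and 0.38 log2. The assembly factor median in the ubAPE1 line was -0.40 log2 both with and without the length trend.

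**Figure D4:**
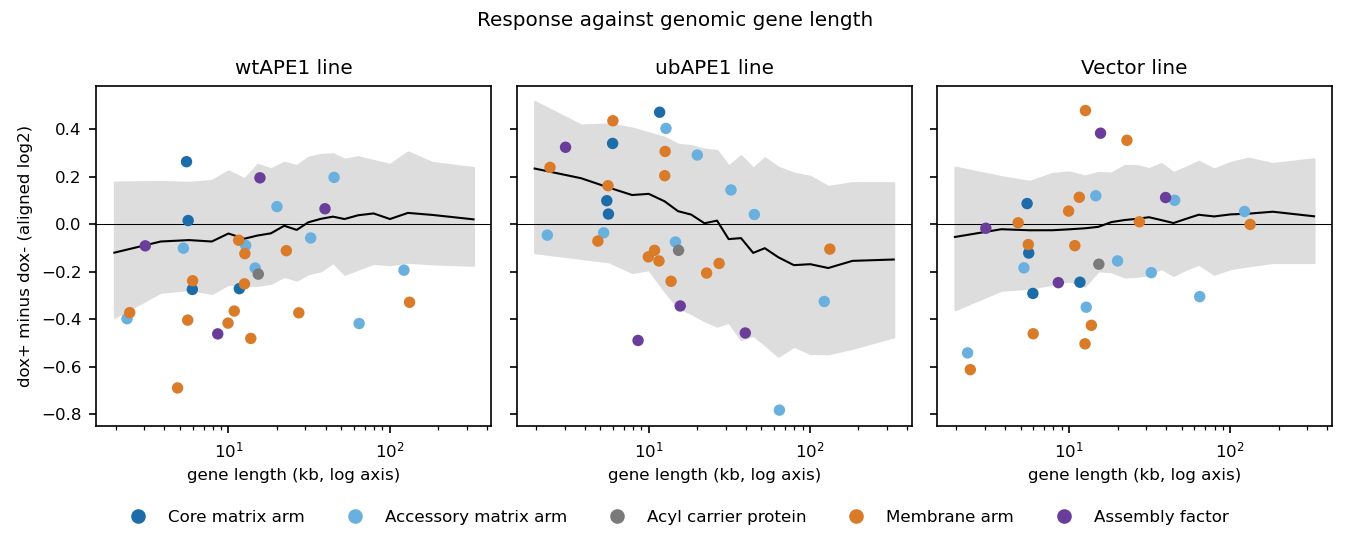
Response (dox+ minus dox-, aligned log2, y axis) against genomic gene length (kb, log x axis) of the 31 kept complex I genes, coloured by role, in the wtAPE1, ubAPE1 and vector lines. The black line is the median and the grey band the 10th to 90th percentile of all kept rows with a length, in 20 length bins. The line slopes down in the ubAPE1 line, and the membrane-arm genes lie below the line in the wtAPE1 panel.

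Promoters of complex I genes were read from RefSeq for 30 of the 34 genes (38 starts). The motifs searched on both strands were NRF1 (GCGCATG), ETS (CCGGAAG), YY1 (ATGGCGG) and SP (GGGCGG), short cores named after factors that are known to bind promoters of respiratory chain genes, and these letters were chosen after the data were seen. The end of the NRF1 core and the beginning of the YY1 core share letters, and the YY1 core can hold a start codon. YY1 letters were in 11 of 38 promoters (28.9%), beside 5.55% of the 35114 promoters of the table and 9.14% of those of genes with a kept row. Of these 11, 10 belonged to subunits. NRF1 letters were in 18.4%, against 4.43% of the table and 6.18% of promoters of genes with a kept row. ETS letters were in 10.5%, against 10.3% and 15.9%, and SP letters in 63.2%, against 45.0% and 67.3%. In complexes II to V the YY1 letters were in 7 of 35 promoters and the ETS letters in 45.7%.

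In 7 subunit genes the YY1 letters lie after the start and on the gene's own strand. The 30 bases around them are set side by side to show their place, with the letters in capitals. They lie at chr7:123557775-123557804 (NDUFA5, minus strand), chr22:42090724-42090753 (NDUFA6, minus strand), chr12:4649118-4649147 (NDUFA9, plus strand), chr11:47579083-47579112 (NDUFS3, plus strand), chr5:53560654-53560683 (NDUFS4, plus strand), chr5:1801409-1801438 (NDUFS6, plus strand) and chr19:1383918-1383947 (NDUFS7, plus strand).
NDUFA5: ggcgctgtcATGGCGGgtgtgctgaagaag
NDUFA6: tttggcaagATGGCGGggagcggcgtccgc
NDUFA9: tgggaaaagATGGCGGctgccgcacaatcc
NDUFS3: ctgagtaacATGGCGGcggcggcggtagcc
NDUFS4: tgcagcaagATGGCGGcggtgtcaatgtca
NDUFS6: cggcgcaaaATGGCGGcggcgatgaccttc
NDUFS7: gaggccaagATGGCGGtgctgtcaggtgag
The letters begin between 11 bases (NDUFS6) and 28 bases (NDUFA6) after the start. These 7 genes, all of the matrix arm, did not share a response: in the ubAPE1 line NDUFS7 was at 0.47 log2 and NDUFA5 at -0.78 log2, and in the wtAPE1 line NDUFS3 was at 0.26 log2 and NDUFA5 at -0.42 log2. A match is a description of letters, not of binding, and no match says only that the letters are not in that stretch.

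The rest of the complex I pathway gave a mixed picture. Of the mitochondrially encoded core subunits, ND5 and ND6 had rows of their own. ND5 was at 10.90 log2 in dox+ and 10.51 log2 in dox- cells of the wtAPE1 line, at 10.40 log2 in dox+ and 10.85 log2 in dox- cells of the ubAPE1 line, and at 10.55 log2 in dox+ and 11.11 log2 in dox- cells of the vector line, so it was higher with the drug in the wtAPE1 line only. ND6 responded by -0.32, -0.18 and -0.34 log2 in the wtAPE1, ubAPE1 and vector lines. Kept were 12 other assembly factors, among them ACAD9, ECSIT, TMEM126B and TIMMDC1. Their median responses were 0.08, -0.18 and 0.07 log2 in the wtAPE1, ubAPE1 and vector lines. In these lines 5, 9 and 5 of the 12 were below 0, beside 52.6%, 50.7% and 47.8% of all kept rows. DMAC1, a factor for the far end of the membrane arm, was the 1 of them past 1.5-fold, with responses of -0.35, 0.37 and -0.61 log2. TIMMDC1, which joins membrane-arm modules, responded by 0.56, -0.19 and 0.29 log2. By limma 0 of the 12 passed in any comparison.

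Beside the complex I genes stand 25 kept nuclear subunits of complexes II to V. Their median response was -0.14 log2 in the wtAPE1 line with 19 of 25 below 0, beside 52.6% of all kept rows. It was 0.09 log2 in the ubAPE1 line with 7 of 25 below 0, beside 50.7% of rows. In the vector line it was -0.26 log2 with 19 of 25 below 0, beside 47.8% of rows. In complex IV 8 of 8 genes were below 0 in the wtAPE1 line, beside the same 52.6% of rows. The complex IV medians were -0.36 log2 in the wtAPE1 line, 0.26 log2 in the ubAPE1 line and -0.42 log2 in the vector line. By limma 2 of these 25 genes were called in wtAPE1 minus vector, beside 5.57% of all kept rows, and 2 in ubAPE1 minus vector, beside 4.65%. In the common doxycycline effect 1 was called, beside 0.0775% of rows. Complex I had 0 calls in each, and the difference between the lists was not tested. SDHA, the flavoprotein of complex II, stood at -0.93 log2 in wtAPE1 cells relative to vector cells (adjusted p = 8.64e-05 by limma), and at -0.84 log2 in ubAPE1 cells (adjusted p = 0.000507 by limma). SDHC, a membrane anchor of complex II, differed from the vector line by -0.72 log2 in the wtAPE1 line (limma adjusted p = 0.0132). In the ubAPE1 line the SDHC difference was -0.68 log2 (limma adjusted p = 0.0256). For wtAPE1 the SDHA difference was -0.93 log2 in each drug state. For ubAPE1 the SDHA difference was -0.60 log2 in the dox- state and -1.08 log2 in the dox+ state. Neither SDHC difference was even across the drug states. For wtAPE1 it was -1.003 log2 in the dox- state and -0.44 log2 in the dox+ state. For ubAPE1 it was -0.16 log2 in the dox- state and -1.21 log2 in the dox+ state. The SDHC responses were 0.52, -1.09 and -0.04 log2 in the wtAPE1, ubAPE1 and vector lines. COX7A2, a small subunit of complex IV, had a common doxycycline effect of -0.71 log2 (limma adjusted p = 0.0203). Of the regulators of mitochondrial biogenesis 8 were measured and 7 kept, and 0 passed in any comparison. The largest responses among those were -0.43 log2 for the transcription factor TFB2M in the ubAPE1 line and -0.37 log2 for the RNA polymerase POLRMT in the wtAPE1 line.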

How the data were processed

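Log2 levels per array row were deposited by the authors, 1 column per group; the 3 replicates of each group were averaged by the authors, per the labels. How the rows were summarised, background-corrected and normalized is not given in the sources used here. Build hg 18 is named in the submitters' processing notes; gene names, lengths and promoters come from RefSeq tables for GRCh38.p14, and no hg 18 coordinates are used. All 34 genes were found by gene ID, with 0 symbols changed.

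Columns were aligned on the median deviation from the row means, and rows with a mean at or above the 25th percentile kept. The additive limma fit (version 3.58.1, R 4.3.3) had line and doxycycline as terms, with 2 residual and 68.2 prior degrees of freedom, a median residual SD of 0.145 log2, and Benjamini-Hochberg adjustment over 11619 rows at 0.05. On simulated data, 75% of 1.5-fold and 100% of 2-fold common changes were recovered, and 42% and 99% of line differences. Unchanged rows called were 12 in the common and 8 in the line comparison. These data held 100 planted changes of each size in independent noise drawn from the fitted prior. They had no line-specific drug responses and no length trend, so the shares need not hold for the real columns. Responses of 1 line were described by size at 1.5-fold. The complex I genes and the lists were chosen with earlier results of these data known. Named are NDUFA1, called genes, the 5 highest and 5 lowest per comparison, and genes under the filter. Alternatives were other scalings, filters, a floor, size rules, length trend removal, other eBayes settings and leaving out lines. The number of arrays limits the precision.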

Additional observations from a re-analysis of the deposited data

Results flagged for a closer look

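4 genes had responses of opposite sign in the ubAPE1 and vector lines, each larger than 2 times the median residual SD of the additive fit. The difference was not tested, since each response rests on 1 pair of averaged columns. That SD is for single columns, whereas a response is a difference between columns. The share of all kept rows that met this rule was not counted, so the 4 genes cannot be set against it and are not shown to stand out. Opposite signs alone were common. Of all kept rows, 16.9% (wtAPE1 line lower) and 10.3% (wtAPE1 line higher) were lower in vector and higher in ubAPE1 cells. The reverse held for 12.9% (wtAPE1 line lower) and 17.1% (wtAPE1 line higher) of them. Over the kept rows with 1 symbol the vector and ubAPE1 responses correlated at -0.20, and over the complex I genes at -0.24. NDUFB7, of the membrane arm, responded by 0.44 log2 in the ubAPE1 line and -0.46 log2 in the vector line. NDUFA7, of the matrix arm, responded by 0.40 log2 in the ubAPE1 line and -0.35 log2 in the vector line. NDUFS8, a core subunit, responded by 0.34 log2 in the ubAPE1 line and -0.29 log2 in the vector line. NDUFAF1, an assembly factor, went the other way, with -0.34 log2 in the ubAPE1 line and 0.38 log2 in the vector line. With the length trend removed, the NDUFB7 and NDUFS8 values in the ubAPE1 line were 0.28 and 0.19 log2, and the NDUFS8 value in the vector line was -0.27 log2, so neither gene then passed that limit in both lines.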

How the results depend on the processing

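By limma 0 complex I genes were called in any comparison under any alternative. Over all rows, the calls for wtAPE1 minus vector were 647 (17.6% higher), against 245 (4.9% higher) without the alignment, 328 with a filter at the 50th percentile and, chosen after seeing the data, 1998 (35.3% higher) without the ubAPE1 columns. For ubAPE1 minus vector they were 540 (17.4% higher), against 162 (6.17% higher) without the alignment and 277 at the 50th percentile. For the common doxycycline effect 9 rows were called, against 0 without the alignment or the line term, 2 after quantile normalization or at the 50th percentile, 4 without a filter, 5 with the length trend removed, and 8, 4 and 47 without the vector, wtAPE1 and ubAPE1 lines.

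Genes at least 1.5-fold apart in the response numbered 1 in each line. In the vector line there were 2 without the alignment and after quantile normalization (NDUFA2 added), 2 without a filter (NDUFAF2 added), 0 with the length trend removed, 0 at 2-fold and 9 at 0.32 log2. In the wtAPE1 line there were 0 at 2-fold and 11 at 0.32 log2. In the ubAPE1 line there were 2 without the alignment or with the length trend removed (NDUFAF4 added), 0 at 2-fold and 10 at 0.32 log2. For the difference wtAPE1 minus vector the 2 genes became 0 without the alignment, 1 with the length trend removed and 0 at 2-fold. For ubAPE1 minus vector the 7 (6 higher, 1 lower) became 5 higher and 3 lower without the alignment, 4 higher and 2 lower with the length trend removed, and 0 at 2-fold. For ubAPE1 minus wtAPE1 the 5 higher genes became 2 lower ones without the alignment, 8 higher after quantile normalization, 1 lower with the length trend removed and 0 at 2-fold. The cause was not tested. The assembly factor median in the ubAPE1 line, -0.40 log2, was -0.19 log2 with the other assembly factors included, and its ubAPE1 minus vector value, -0.08 log2, was -0.27 log2 in the dox+ state alone. List medians changed sign in 11 of 48 alternatives for subunits and in 11 of 55 for assembly factors. Counts and medians under an alternative were also set against the value in the report. In 159 comparisons a count stayed within 1.5 times or a median within the residual SD of it, and 22 moved further. Some of the sign changes are among the 159, since a median near 0 can change sign within the residual SD.

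The alternatives without NDUFA4 and with all rows of a gene were not run, since NDUFA4 has no row of its own and each gene has 1 row. No paired analysis was possible because the replicates were averaged before deposit. Without their spread, a response of 1 line cannot be set against replicate error.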
